A study of Rattus norvegicus with 8 samples.

Results

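The miRNAs described here are those of skeletal and heart muscle, liver and brain as they were read in rat kidney. They were taken by name from the counts of known rat miRNAs, as the rows numbered miR-1, miR-133a, miR-133b, miR-206, miR-208, miR-499, miR-122, miR-124 or miR-9 with any arm suffix. Of the 620 miRNAs listed, 14 met this rule, 8 of them from muscle, 2 from liver and 4 from brain, and 1 of the 9 numbers, miR-208, had no row. An asterisk marks the opposite arm of a hairpin, which is usually the less abundant one.

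Both groups were male Fisher 344 rats of the Big Blue transgenic strain, which carries a reporter for mutation assays, and kidneys of 8 animals were used. The AA group of 4 rats was given aristolochic acid (AA, a plant carcinogen of the kidney, here a mixture of its forms I and II as the sodium salt) by gavage at 10 mg/kg and 4 ml/kg, 5 times a week for 12 weeks from the age of 6 weeks. The control group (CTL) of 4 rats was given 0.9% sodium chloride on that schedule, and each library was made from a small cut piece of the kidney of 1 rat. The libraries held 13412373 to 15616670 reads on the listed miRNAs.

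A miRNA is cut from a hairpin precursor and guides silencing proteins to messenger RNAs that pair with its seed, bases 2 to 8 from the 5′ end. miR-1 and miR-133a are made together from shared transcripts in heart and skeletal muscle, where they act in muscle differentiation, and miR-206 and miR-133b form a similar pair in skeletal muscle. miR-499 lies within a myosin gene and is known from heart and slow muscle. miR-122 is the predominant miRNA of hepatocytes, where it acts in cholesterol metabolism. miR-124 is typical of neurons, and miR-9 of neural progenitors and neurons. These miRNAs are often used as signs of their tissues, and none of them is known chiefly from the kidney.

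The mature sequences below show which of the miRNAs can be mistaken for each other when short reads are counted. They were taken from RefSeq (build GRCr8) by name for 11 of the 14 miRNAs, with the names without a suffix matched to the arm known as the main product. miR-206*, miR-124 and miR-124* were not matched. The seed is in capitals.
rno-miR-1: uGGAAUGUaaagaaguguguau
rno-miR-206: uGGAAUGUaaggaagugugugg
rno-miR-133a: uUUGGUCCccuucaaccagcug
rno-miR-133b: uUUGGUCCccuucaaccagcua
rno-miR-499: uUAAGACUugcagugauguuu
rno-miR-122: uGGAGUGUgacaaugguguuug
rno-miR-122*: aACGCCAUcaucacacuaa
rno-miR-9: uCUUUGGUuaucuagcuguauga
rno-miR-9*: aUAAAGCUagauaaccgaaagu

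miR-1 and miR-206 shared 1 seed and miR-133a and miR-133b another, while each of the other sequences had a seed of its own. With miR-499* and miR-133a*, which are not printed, the 11 matched sequences held 9 seeds. With positions counted from the 5′ end of miR-1 and its base written first, miR-206 differed by A11G, A21G and U22G. miR-133b differed from miR-133a by G22A only, so that a read that lacks the last base fits both, and the counts of these 2 miRNAs are uncertain as a split.

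The RefSeq hairpins of miR-133a and miR-1 lie 2368 bases apart on the minus strand, at chr18:2157872-2157958 and chr18:2160327-2160413, within the span of Mib1, a ubiquitin ligase gene. The hairpins of miR-206 and miR-133b lie 3801 bases apart on the plus strand, at chr9:30590697-30590780 and chr9:30594582-30594665, within a lncRNA locus. The miR-499 hairpin lies on the plus strand at chr3:164570612-164570676, within the myosin gene Myh7b. The miR-122 hairpin lies on the plus strand at chr18:61028817-61028901, within a transcribed pseudogene. miR-9 is encoded by 3 hairpins in the table used, on chromosomes 1 and 2, and its reads cannot be assigned to 1 of them. Whether these places are exons or introns was not analysed here.

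The tissue field of the labels reads liver, whereas the study and all remaining labels give kidney, and the counts allow a check. miR-192, a miRNA abundant in kidney and gut epithelium, had 263484 to 920176 reads per library. miR-122, which leads the miRNAs of liver, had 9 to 9634 reads and ranked from 69 to 364 among the 620 miRNAs. The reads of miR-192 were 27.3 to 37870 times those of miR-122, so that miR-122, which leads in liver, led in none of these libraries. The check rests on miR-122, since the levels of the kidney miRNAs in liver were not examined here. A list of kidney miRNAs (miR-30a, miR-192, miR-10b, miR-204 and miR-194, with miR-10a unmatched under that name) held 12.6% to 18.5% of the reads of a library. Of the reads of this list, 79.2% were on miR-30a. The row named miR-10a-5p, at 60821 to 121691 CPM (defined below), was left out of the sum, which would be higher with it.

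Summed over each organ, the brain miRNAs took the most reads in 7 of the 8 libraries, and the liver miRNAs varied most between rats. The 14 miRNAs together held 77143 reads, 0.0405% to 0.122% of a library. The brain miRNAs held 0.0333% ± 0.00714 (SD, n = 4) of the reads in CTL rats and 0.0491% ± 0.0152 (SD, n = 4) in AA rats. The muscle miRNAs held 0.0154% ± 0.000523 (SD, n = 4) and 0.0147% ± 0.00300 (SD, n = 4). These muscle shares were close to each other in the CTL rats and ranged from 0.0127% to 0.0191% in the AA rats. The liver miRNAs held between 6.7e-05% and 0.00479% of the reads in 7 libraries and 0.0654% in the second AA library, AA2 (95% Wilson interval 0.0641% to 0.0667%, for counting error only, since PCR copies are not independent molecules). In AA2 they made up 53.5% of the reads on the 14 miRNAs, and in the first CTL library, CTL1, 9.14%, against at most 1.11% in the other 6 libraries. In whole tissue, fewer cells of a type and less RNA per cell cannot be told apart.

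**Figure D1:**
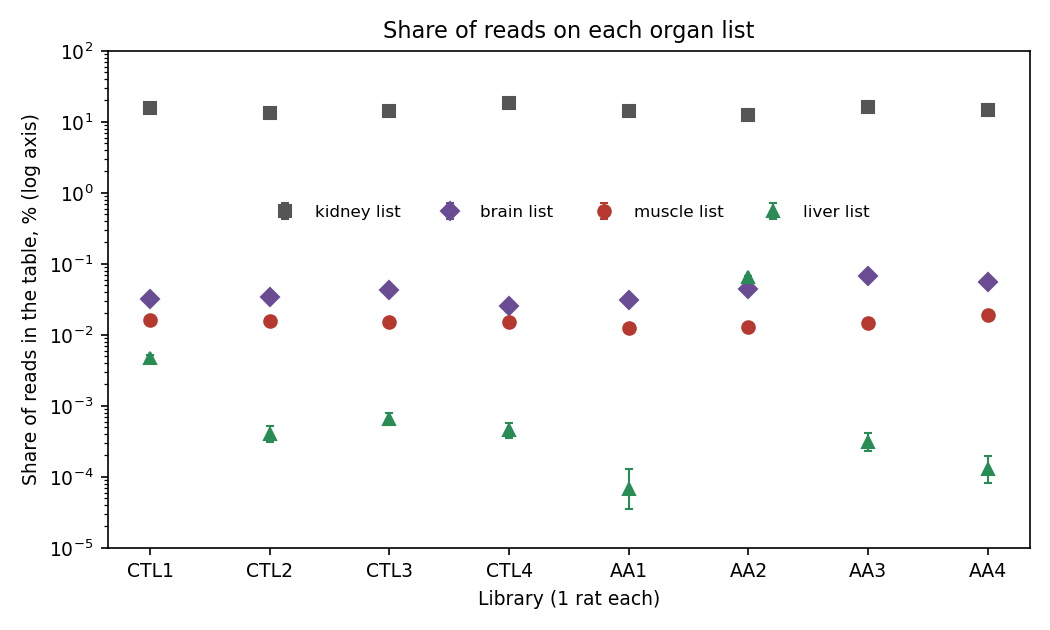
Share of the reads in each library, in percent on a log axis, that fell on the kidney, brain, muscle and liver miRNAs in 4 CTL and 4 AA rats. Bars are 95% Wilson intervals, mostly smaller than the symbols, and the liver miRNAs rise to 0.0654% in AA2 and 0.00479% in CTL1.

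Per miRNA, the order of the median level over the 8 libraries was miR-9, miR-499, miR-9*, miR-1, miR-206, miR-122, miR-133a, miR-499*, miR-133b, miR-124 and miR-122*. Levels are in CPM, the usual counts per unit of library size with the library sizes scaled by TMM, and were not divided by length, because the mature sequences are 19 to 23 bases long and 1 read spans the molecule. The median levels were 333 CPM for miR-9, 110 CPM for miR-499, 24.7 CPM for miR-1 and 9.55 CPM for miR-206. miR-9 lay above miR-499, miR-499 above miR-9* and miR-1 above miR-206 without overlap over the 8 libraries. miR-9* and miR-1 could not be ordered, each being the higher in 4 libraries. From miR-206 down, each miRNA overlapped with the next one. How well single sequences are ligated and amplified was not tested, and it bears on any order of different miRNAs.

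**Figure D2:**
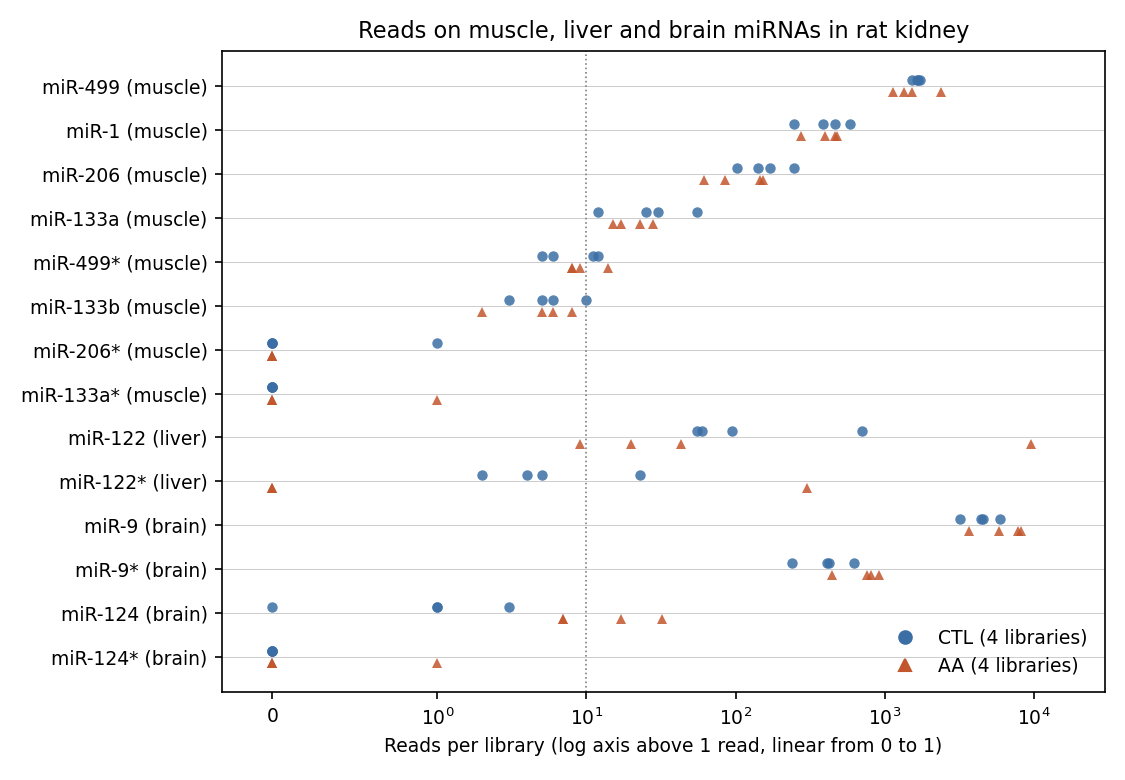
Reads per library for the 14 miRNAs, with circles for the 4 CTL libraries and triangles for the 4 AA libraries, on a log axis above 1 read that is linear from 0 to 1. The dotted line marks 10 reads, and miR-122 spreads from 9 to 9634 reads while miR-499 stays between 1134 and 2385.

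Between AA and CTL rats, none of the 7 of these miRNAs that were tested was called by the test across all miRNAs. With 4 rats per group, the lack of a call does not show that a level was unchanged. Of the 14, 7 reached 10 reads in 4 or more libraries and were tested, and 0 of these 7 passed an adjusted p-value of 0.05 (edgeR's quasi-likelihood test), against 60 of 367 miRNAs, or 16.3%, in the whole table. At an unadjusted p-value under 0.05, 1 of the 7, miR-9*, was counted, against 30.0% of all tested miRNAs. DESeq2 also called 0 of them and gave no adjusted p-value for miR-122. The fitted log2 fold changes were above 0 in 3 and below 0 in 4 of the 7, with a median of -0.22, while over all tested miRNAs the median was 0.06. TMM scaling largely sets that last value, which was 0.27 with total counts and -0.12 without CTL1 and AA2. With total counts each of the 7 fold changes kept its sign, but 2 of them came close to 0. The log2 fold change of miR-499 went from -0.24 to -0.03, and that of miR-1 from -0.22 to -0.02. For each of the 7 miRNAs, the AA and CTL libraries overlapped, while 89 of all 367 tested miRNAs showed no overlap. With 7 miRNAs, this does not set them apart from the rest.

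**Figure D3:**
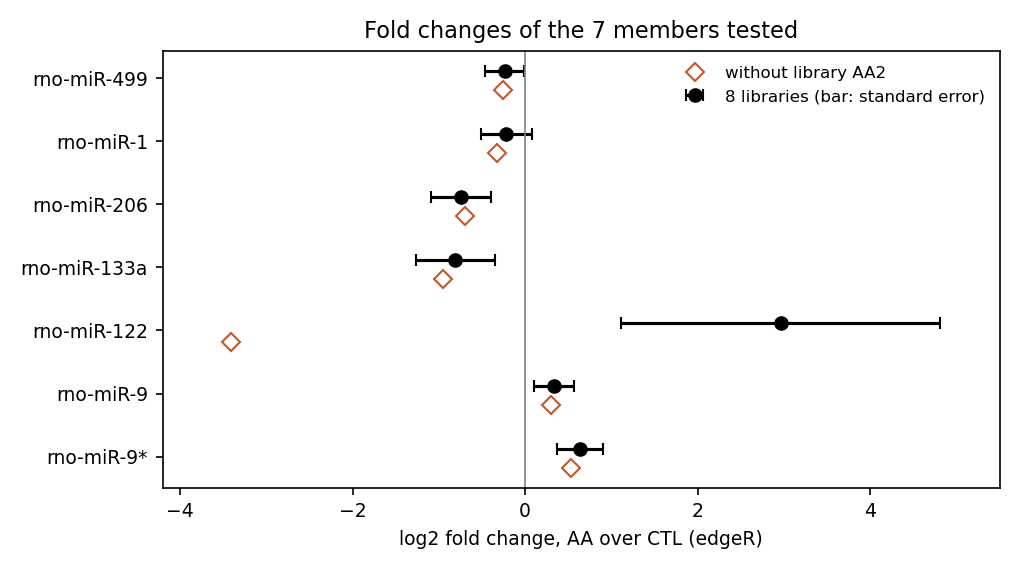
log2 fold changes of the 7 miRNAs tested, AA over CTL, from the edgeR fit of 8 libraries (black, bars are standard errors) and without library AA2 (open diamonds). Only miR-122 changes direction, from 2.96 to -3.41, and none of these values passed the adjusted threshold.

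miR-122 was carried by single libraries. rno-miR-122 had 707, 55, 95 and 60 reads in CTL1 to CTL4, and 9, 9634, 43 and 20 reads in AA1 to AA4. Library AA2 was the highest by far and CTL1 the next, whereas the other 3 AA libraries lay below every CTL library. In CPM these levels were 53.0, 4.05, 5.89 and 4.89 in the CTL group and 0.696, 523, 2.96 and 1.19 in the AA group. The fitted log2 fold change was 2.96 with a standard error of 1.84 (adjusted p = 0.30, edgeR). Without AA2 it was -3.41 (adjusted p = 0.051), and without both AA2 and CTL1 it was -1.79 (adjusted p = 0.064). With the library number as a block it was -1.26 with all 8 libraries kept (adjusted p = 0.65). The direction of the difference thus turned with 1 library and with the model, and neither direction was called.

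The opposite arm followed the main arm. rno-miR-122* had 23, 4, 5 and 2 reads in CTL1 to CTL4, and 0, 302, 0 and 0 reads in AA1 to AA4. The same pair of libraries, AA2 and CTL1, stood above the rest. In AA2 the opposite arm made up 3.04% of the reads of the hairpin (95% Wilson interval 2.72% to 3.40%), and in CTL1 3.15% (2.11% to 4.68%). Each of these shares lay within the interval of the other. For the AA libraries without a read on miR-122*, the interval reached 29.9% in AA1, 8.20% in AA3 and 16.1% in AA4, so that these intervals include the shares of AA2 and CTL1. miR-3591, which RefSeq places on the opposite strand of the miR-122 hairpin, appears only as miR-3591*, with 1 read in all.

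**Figure D4:**
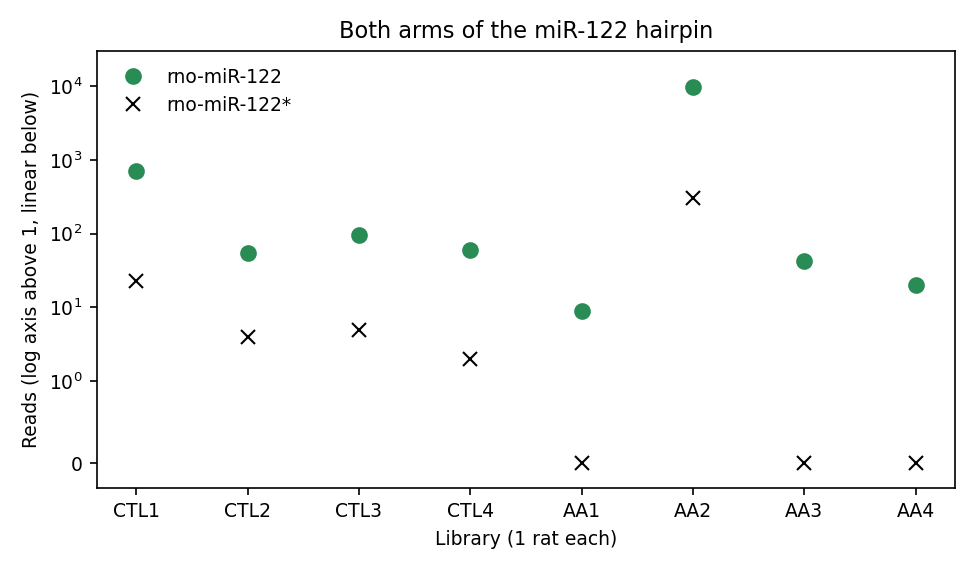
Reads of rno-miR-122 (circles) and rno-miR-122* (crosses) in each library, on a log axis above 1 read that is linear from 0 to 1. Both arms are highest in AA2, at 9634 and 302 reads, and next in CTL1, at 707 and 23 reads.

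Other miRNAs also stood apart in AA2. Set against the median of the other 3 AA libraries on the log2 CPM scale, miR-122 was 8.63 higher in AA2 and ranked 1 of 367. Outside the 14 miRNAs, miR-205, known from squamous epithelium and urothelium, was next with a log2 ratio of 3.36. It had 8166 reads in AA2, and 310, 627 and 730 in AA1, AA3 and AA4. miR-31 and miR-31*, the arms of 1 hairpin, followed with log2 ratios of 2.29 and 1.90. 3 of the 367 miRNAs exceeded a log2 ratio of 2 in AA2.

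Of the muscle and brain miRNAs, the 6 that passed the read filter did not stand high in that library, whereas miR-124 had its most reads there. The log2 ratios of AA2 to the median of the other AA libraries were -0.54 for miR-499, 0.10 for miR-1, -0.89 for miR-206, 0.08 for miR-133a, -0.54 for miR-9 and -0.03 for miR-9*. Of these, miR-206 was on the low side, at rank 345 of 367. In CTL1, miR-122 was again ranked 1 of 367, with a log2 ratio of 3.40 to the median of the other 3 CTL libraries. It was the only miRNA above a log2 ratio of 2 there. Of the muscle miRNAs, miR-206 and miR-1 were on the high side in CTL1, with log2 ratios of 0.82 (rank 10) and 0.53 (rank 36), while miR-9 was at -0.02. The next outside the 14 were miR-449a, miR-219-2-3p and miR-664-2*, at 1.36, 1.03 and 0.98. For miR-205, CTL1 was the lowest of the CTL libraries, with 131 reads against 156 to 733, so that miR-205 was high beside miR-122 in AA2 and not in CTL1. The part of RNA from another tissue in these values was not tested.

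**Figure D5:**
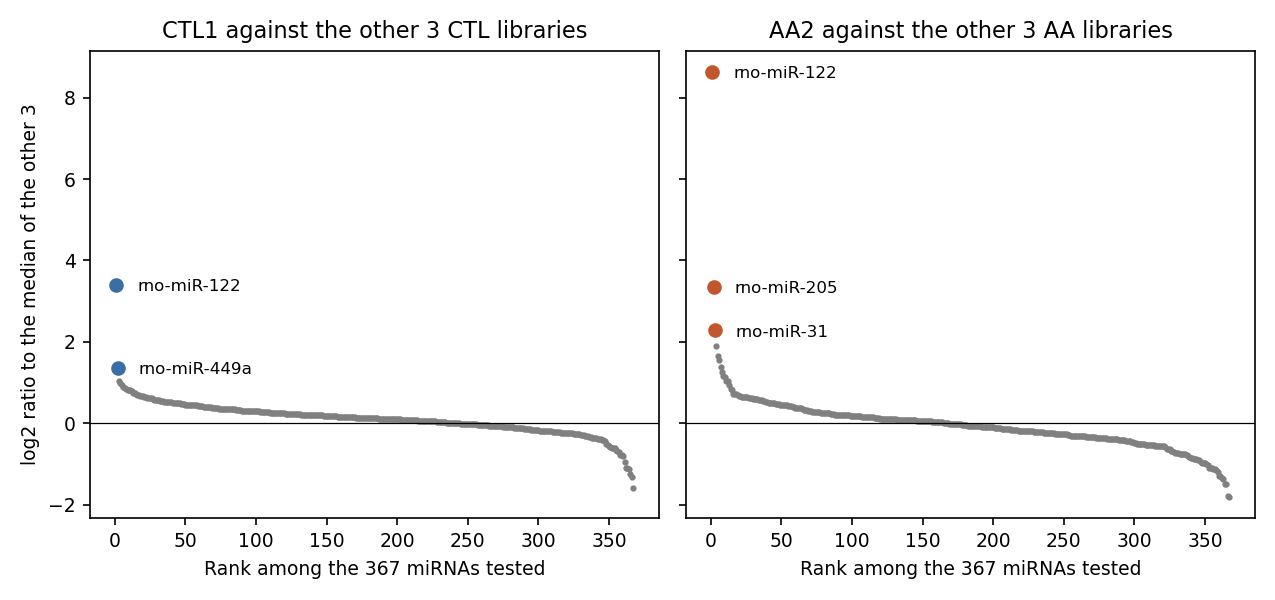
log2 ratio of CTL1 (left) and AA2 (right) to the median of the other 3 libraries of the group, for the 367 miRNAs tested, in order of the ratio. miR-122 ranks first in both panels, at 3.40 and 8.63, and miR-205 follows in AA2 at 3.36.

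Among the muscle miRNAs, miR-499 took 73.3% of the reads. rno-miR-499 had 1684, 1530, 1734 and 1641 reads in CTL1 to CTL4, and 1134, 1343, 1538 and 2385 reads in AA1 to AA4. The CTL libraries lay close together, while the AA libraries reached both below and above them. Its level was 120 ± 12.1 CPM in CTL rats and 102 ± 29.5 CPM in AA rats (SD, n = 4 each), with a log2 fold change of -0.24 with a standard error of 0.23 (adjusted p = 0.49, edgeR), and without AA4 it was -0.53. miR-499* had 5 to 14 reads per library and made up 0.513% of the hairpin's reads in the CTL group and 0.606% in the AA group. Its levels of 0.603 ± 0.204 and 0.618 ± 0.117 CPM (SD, n = 4 each) differed by less than the SD of either group. The exact permutation test of the difference in means (two-sided) gave p = 0.886.

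rno-miR-1, which represses alternative fates in muscle cells, had 462, 588, 387 and 246 reads in CTL1 to CTL4, and 478, 467, 276 and 400 in AA1 to AA4. The groups overlapped almost completely. Its log2 fold change was -0.22 with a standard error of 0.29 (adjusted p = 0.64, edgeR), and it ranged from -0.53 to 0.0003 with 1 library left out. rno-miR-206, of skeletal muscle, had 61 to 247 reads per library, at levels of 18.5, 10.4, 10.5 and 8.31 CPM in CTL1 to CTL4, and 4.71, 4.61, 10.5 and 8.65 CPM in AA1 to AA4. AA1 and AA2 were the lowest libraries, and the other 2 AA libraries lay among the controls. The log2 fold change was -0.75 with a standard error of 0.35 (adjusted p = 0.18, edgeR), and without CTL1 it was -0.46.

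rno-miR-133a, which acts in muscle growth and splicing, had 30, 25, 12 and 55 reads in CTL1 to CTL4, and 15, 23, 17 and 28 in AA1 to AA4. The fourth CTL library was the highest and the third CTL library the lowest of all 8. The log2 fold change was -0.81 with a standard error of 0.46 (adjusted p = 0.26, edgeR), and without CTL4 it was -0.28. rno-miR-133b had 2 to 10 reads per library and a level of 0.446 ± 0.230 CPM in the CTL group and 0.328 ± 0.144 CPM (SD, n = 4 each) in the AA group. It reached 10 reads in CTL2 only, and no test is given. miR-133a* had 1 read in AA4 and miR-206* 1 read in CTL4, and all other libraries had none.

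Neighbouring hairpins gave unequal read counts. The reads of miR-1 were 4.47 to 32.2 times those of miR-133a per library, and 16.1 times over all 8. For the pair in the lncRNA locus, the reads of miR-206 were 14.2 to 56.7 times those of miR-133b, and 24.6 times over all 8. miR-133b had only 2 to 10 reads per library, and its split from miR-133a is uncertain, so that the ratios of both pairs are rough. In each pair the member with the seed of miR-1 was the higher in all 8 libraries. miR-1 and miR-206, which share that seed, stood at a ratio of 1.80 to 7.84, and the highest ratio was in AA1. miR-3571, on the strand opposite to miR-1, had 1 read in all.

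The brain miRNA miR-9 was the most abundant of the 14 in 7 of the 8 libraries, below miR-122 in AA2, and both of its arms had higher means in AA rats without passing the test. rno-miR-9 had 4413, 4552, 5962 and 3209 reads in CTL1 to CTL4, and 3694, 5864, 8257 and 7821 in AA1 to AA4. AA3 and AA4 were above every control, and AA1 and AA2 lay among the controls. Its level was 324 ± 45.4 CPM in CTL rats and 409 ± 131 CPM in AA rats (SD, n = 4 each), with a log2 fold change of 0.33 with a standard error of 0.24 (adjusted p = 0.35, edgeR), and without AA3 it was 0.13. miR-9 ranked from 67 to 89 among the 620 miRNAs in the 8 libraries.

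rno-miR-9*, a functional arm in neurons, had 408, 424, 620 and 239 reads in CTL1 to CTL4, and 442, 812, 916 and 758 in AA1 to AA4. On the CPM scale, AA1 was below the third CTL library, and the other 3 AA libraries were above every control. The level was 29.9 ± 7.83 CPM in CTL rats and 46.5 ± 12.0 CPM in AA rats (SD, n = 4 each), with a log2 fold change of 0.64 with a standard error of 0.26 (adjusted p = 0.13, edgeR). The opposite arm made up 8.46%, 8.52%, 9.42% and 6.93% of the hairpin's reads in CTL1 to CTL4, and 10.7%, 12.2%, 9.99% and 8.84% in AA1 to AA4. AA4 lay below the highest control, so that the groups overlapped. miR-3597-3p, a row named for hairpins on the strand opposite to miR-9, had 10 reads in all.

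miR-124 had 0 to 3 reads in the control kidneys and was read in every AA kidney. rno-miR-124 had 1, 1, 0 and 3 reads in CTL1 to CTL4, and 7, 32, 7 and 17 in AA1 to AA4, so that every AA library lay above every control. Its level was 0.0982 ± 0.103 CPM in CTL rats and 0.941 ± 0.580 CPM in AA rats (SD, n = 4 each). It reached 10 reads in AA2 and AA4 only, so that it was considered through the group where it was high, and no test is given. The CTL group held 5 reads in all, 3 of them in CTL4, and the AA group 63. Of the 66 miRNAs outside the edgeR test with at least 10 reads in some library, 7.58% had every AA library above every CTL library, a share that lends miR-124 no support, since it entered these 66 through the AA libraries. AA2 had the most reads on miR-124, as on miR-122, and without AA2 the difference in mean level went from 0.843 to 0.578 CPM. miR-124* had 1 read, in AA2.

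miR-122 had among the widest spreads between rats of 1 group. The coefficient of variation of the level of miR-122 was 141.8% in the CTL group and 197.6% in the AA group, ranked 2 and 1 of 367 miRNAs, while the medians over all tested miRNAs were 21.66% and 26.03%. miR-499 and miR-9 were below the median in the CTL group, at 10.06% and 13.99%, and above it in the AA group, at 28.96% and 32.13%. miR-133a went the other way, from 67.4% in the CTL group to 18.1% in the AA group. miR-1 and miR-206 were above the median in both groups.

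The 3 miRNAs outside the 14 whose levels were most like each of the main ones are given by Pearson's r of log2 CPM over the 8 libraries, which share the depth and the scaling, as a description. For miR-122 they were miR-22 (r = 0.95), miR-188 (0.81) and miR-376a* (0.76). Without AA2 and CTL1, r was 0.92 for miR-22, 0.84 for miR-376a* and 0.09 for miR-188 over the 6 libraries left, so that the likeness of miR-188 rested on that pair of libraries. miR-22 had 26313 reads in AA2 and 14864 to 19969 in the others, but its range was narrow once scaled. It stood at 1427 CPM in AA2 and at 1149 to 1256 CPM in the others. Its log2 ratio of AA2 to the median of the other AA libraries was 0.27, against 8.63 for miR-122.

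The miRNAs most like miR-1 were miR-365*, miR-455 and miR-363, at r of 0.84, 0.80 and 0.77. None of the muscle miRNAs came near these values. For miR-133a, r was 0.96 with miR-181b-1*, 0.94 with miR-342-3p and 0.91 with miR-339-3p. Between miR-1 and miR-133a it was -0.05, and between miR-1 and miR-206 it was 0.05. The 2 arms of miR-9 stood at 0.85. The miRNAs most like miR-124 were miR-150, a lymphocyte miRNA, miR-103-2* and miR-708*, at 0.94, 0.91 and 0.90. Each of these, like miR-124, had every AA library above every CTL library. The values of r thus largely restate that difference between the groups, and no likeness beyond it can be read from them. Outside the 14, those most like miR-9 were miR-201*, miR-196a and miR-335, at 0.85, 0.80 and 0.80. By ranks (Spearman's rho) the values were 0.71, 0.60 and 0.45. miR-335 had 900 reads in AA3, where miR-9 was also highest, and 163 to 406 in the others.

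Markers of other cells were read in the same libraries, and their calls stand beside the 16.3% called among all tested miRNAs. A further list of brain-enriched miRNAs, of which 9 of 10 were listed and 6 tested, had 1 call, lower in the AA group, in miR-219-2-3p (log2 fold change -2.94, standard error 0.86, adjusted p = 0.041, edgeR), a share near that of all miRNAs. Its other tested members went both ways, and none of these was called. Their log2 fold changes were 0.24 for miR-128, 0.40 for miR-138, 0.30 for miR-219-5p, -0.54 for miR-7a and -0.52 for miR-129. Of the reads of this list 93.5% were on miR-7a, and its summed share was 0.0893% ± 0.0126 in the CTL and 0.0721% ± 0.0160 in the AA group (SD, n = 4 each). Of the 4 leukocyte miRNAs, 2 were called higher, miR-142-3p and miR-223, and 0 lower, with summed shares of 0.103% ± 0.0167 and 0.313% ± 0.108 (SD, n = 4 each), while miR-150 was not called (adjusted p = 0.062, edgeR). Neither was miR-142-5p (log2 fold change 0.30, adjusted p = 0.56, edgeR), whose level in AA4 was below every control. miR-142-3p held 90.4% of the reads of this list. The part of leukocytes in the reads of miR-124 was not tested.

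miRNAs of other organs and of the kidney itself were lower or not called. Of the pancreas list, miR-375 was called lower and its summed share went from 0.0231% ± 0.00344 to 0.00515% ± 0.00193 (SD, n = 4 each). miR-375 held 97.9% of the reads of this list, while miR-217 had a log2 fold change of 0.63 (adjusted p = 0.21, edgeR) and miR-216a was not tested. The kidney list had 2 calls of 5, miR-194 and miR-204, both lower. The smooth muscle list (miR-143 and miR-145), the red blood cell list (miR-144 and miR-451, with miR-486 not listed) and the squamous list (miR-203 and miR-205) had 0 calls of 2 each by edgeR at the adjusted threshold. Smooth muscle miRNAs held 15.2% to 22.0% of the reads of a library, nearly all of it on miR-143 (99.6% of the reads of this list), against 0.0127% to 0.0191% for the skeletal and heart muscle miRNAs.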

How the data were processed

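Small RNA from the kidneys of 4 AA and 4 CTL rats was read by Illumina sequencing (Genome Analyzer II) after a gel cut of 22 to 30 nt, which bears on the shorter members. The authors deposited raw read counts per known rat miRNA, made with miRanalyzer and Bowtie against miRBase (tool versions not given in the sources used here). The submitters' notes also name DESeq.

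From the counts, AA and CTL were compared with edgeR 4.0.16 in R 4.3.3 (quasi-likelihood test, TMM, Benjamini-Hochberg adjustment) on 367 miRNAs, those reaching 10 reads in 4 or more libraries. Standard errors are the log2 fold change over the square root of F. log2 CPM for likeness and library ratios used a prior count of 2. Members outside the filter with 10 reads in some library were tested by exact permutation of CPM, except that none is read for miR-124 and miR-133b, which met the minimum in 1 group only. The fit was tested on simulated data. Libraries of a group differed by a chi-square of at least 437 per degree of freedom, so that none was a copy.

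The members, lists and tests were chosen with earlier results of these data known. The text names all 14 members, the marker lists, the 3 miRNAs most like miR-122, miR-1, miR-133a, miR-124 and miR-9, and the 3 that most set CTL1 and AA2 apart. The alternatives were DESeq2 1.42.0 (size factors, Wald test), total counts, other filters, the library number as a block and libraries left out.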

Additional observations from a re-analysis of the deposited data

Results flagged for a closer look

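The levels of the miRNAs and sums described were examined in 68 groups of 4 libraries, and 11 values lay far from the other 3 of their group by Dixon's 95% limit. Chance sets about 1 in 20 groups apart, but miR-205, miR-31, miR-31*, miR-449a, miR-219-2-3p and miR-664-2* were included because they stood apart in AA2 or CTL1, so that the count cannot be set against chance. Of the 11, 4 were in AA2 and 2 in CTL1.

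Library AA2 held 523 CPM of miR-122, while AA1, AA3 and AA4 held 0.696 to 2.96 CPM. In AA2, miR-122* stood at 16.4 CPM against 0, miR-205 at 443 CPM against 24.0 to 43.2, and miR-31* at 31.6 CPM against 5.64 to 9.54. In CTL1, miR-122 was at 53.0 CPM against 4.05 to 5.89, and miR-122* at 1.73 CPM against 0.163 to 0.310. miR-205 was also high in CTL2, at 53.9 CPM against 9.82 to 12.7, where miR-122 was the lowest of the CTL group.

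The other values that stood apart were single miRNAs in other libraries. Library AA3 had 3.71 CPM of miR-219-2-3p, where the rest of its group had 0.163 to 0.696, and miR-335 there was at 61.9 CPM against 20.2 to 24.1. In AA4, miR-181b-1* was at 3.32 CPM against 2.12 to 2.27. In AA1, miR-363 was at 19.2 CPM against 13.2 to 13.5.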

How the results depend on the processing

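Over 104 alternative fits of the 7 members tested, 0 gave a call, and the adjusted p-values ranged from 0.051 to 0.999 (edgeR, or DESeq2, which gave none for miR-122). The log2 fold change of miR-122 was -1.26 with the replicate block, -3.41 without AA2 and -1.79 without CTL1 and AA2. Leaving out 1 library at a time, it ranged from -3.41 to 4.73, and that of miR-1 from -0.53 to 0.0003, the latter without CTL2. The libraries share only a number: deviations of same-numbered libraries correlated at 0.05, 0.20, 0.14 and 0.35, and the block gave 78 calls in the table. Without CTL1 or CTL2, 38 or 36 miRNAs were called in place of 60, and from 36 to 54 with any 1 left out. Without CTL1 and AA2, 31 were called. These fits have fewer libraries.

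The difference of miR-124 ranged from 0.578 to 0.996 CPM with 1 library left out and was 0.571 without CTL1 and AA2, a setting chosen after the data were seen. That of miR-122* was -0.256 there and from -0.623 to 4.84 with 1 left out. That of miR-499* was -0.0832 there and from -0.0501 to 0.0839. The range of miR-124 lends it no support, since it was considered through the AA libraries, where it was high. Without the 3 most abundant miRNAs in the total, the median muscle share was 0.0360% in CTL and 0.0265% in AA, and the brain share 0.0783% and 0.0912%. The opposite arm's share moved most from its pooled value in CTL2 for miR-122 (6.78%), in AA1, AA3 and AA4 (0%), in AA2 for miR-499 (1.03%), and for miR-9 in CTL4 (6.93%), AA2 (12.2%) and AA4 (8.84%). The cause of these moves was not tested. At 10 reads, a level is known within its counting error only.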
